A study of Mus musculus with 4 samples.

Results

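The 47 genes described here encode ligands, receptors, SMAD proteins, inhibitors and target genes of the transforming growth factor beta (TGF-beta) and bone morphogenetic protein (BMP) pathways. They were chosen by name from the 56748 genes of a table of RNA-seq counts in HT22 cells, an immortalised line from mouse hippocampal neurons. A line built to overexpress MEIS2, a TALE homeodomain transcription factor, was compared with a control line of the same cells, with 2 libraries from each line. The question was what MEIS2 does in these cells. The labels give no vector, promoter, clone number or treatment for either line, so MEIS2 and any other difference between the lines cannot be told apart. Nor do they name separate cultures behind the 2 libraries of a line, so p-values measure only how far these libraries spread, and that spread may be technical. In bulk RNA, fewer cells that use a gene and less of its RNA per cell cannot be told apart.

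TGF-beta, activin and BMP ligands bind pairs of type I and type II receptor kinases at the cell surface. TGF-beta and activin receptors phosphorylate SMAD2 and SMAD3, BMP receptors phosphorylate SMAD1, SMAD5 and SMAD9, and both groups join SMAD4 to enter the nucleus and regulate target genes. SMAD6 and SMAD7 act as feedback inhibitors, SMURF ubiquitin ligases remove receptors and SMADs, and secreted proteins such as noggin and follistatin trap the ligands. In the hippocampus, BMP signalling is known for restraining neural stem cell division and TGF-beta signalling for roles in neuron survival.

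The total count per library was 16903967 and 16445575 in controls 1 and 2, and 15705070 and 15014017 in MEIS2 libraries 1 and 2. Levels are CPM, counts relative to the total of a library, scaled by TMM, a normalisation that assumes most genes are unchanged. The detection floor of 3 counts was worth 0.179 to 0.195 CPM and covers counting error only. Meis2 measured 16.0 and 19.6 CPM in the controls and 332.0 and 332.1 CPM in the overexpressing line, which checks the label (log2 fold change 4.22, SE 0.34, n = 2 per line, adjusted p = 6.41e-05 by edgeR's quasi-likelihood test). With each library's trend on length and GC content removed it was 3.66, at an adjusted p of 0.0962. Of 18 neuron markers, 10 had 0 counts in all libraries, among them Rbfox3, Snap25 and Dcx. The summed level of the 18 was 27.6 to 35.1 CPM, and the most abundant, Tubb3, measured 11.9 to 22.2 CPM. Fibroblast markers summed to 3207 to 3788 CPM, most of it Vim, an intermediate filament gene of many cultured cells, with Lum and Thy1 at 0. Col1a1, also on that list, measured 288 and 247 CPM in the controls and 251 and 319 CPM in the MEIS2 libraries. Endothelial markers summed to 1.43 to 3.14 CPM, with Vwf the most abundant and Tek, Cldn5 and Erg at 0. Astrocyte markers summed to 36.4 to 66.1 CPM, nearly all of it Gja1, with Aqp4 at 0. The part of such markers in the results below was not tested.

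Promoter sequences of 33 of the 47 genes were found in a RefSeq table on GRCm38.p6, giving 39 promoters of the 32851 in the table. Smad4, Smad7 and Tgfbr3, described below, were not among the 33 genes. The 250 bases before each start were searched on both strands for TGACAG (reverse CTGTCA), a core motif of MEIS and TGIF proteins, for CAGAC (reverse GTCTG), a SMAD-binding element, and for GGCGCC, a palindrome bound by SMADs at BMP target genes. TGACAG was in 5.13% of these promoters against 15.9% of all promoters, CAGAC in 46.2% against 42.2%, and GGCGCC in 30.8% against 9.59%. The promoters compared were not matched for GC content, and some genes entered with several promoters. What lies behind these shares was not tested. The 4 below are shown since they belong to the receptor gene with the largest fitted difference (Bmpr2), the ligand with the most counts (Tgfb1), an inhibitory SMAD gene (Smad6) and a known target gene (Id3). Capitals mark the motifs, and the last base stands next to the start.
Bmpr2 promoter (chr1:59764029-59764278, plus strand): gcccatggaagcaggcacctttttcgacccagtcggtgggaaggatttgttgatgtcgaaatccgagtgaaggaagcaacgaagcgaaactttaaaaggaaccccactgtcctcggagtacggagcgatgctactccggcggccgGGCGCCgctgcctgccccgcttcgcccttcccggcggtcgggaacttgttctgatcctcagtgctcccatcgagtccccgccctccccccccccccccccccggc
Tgfb1 promoter (chr7:25686752-25687001, plus strand): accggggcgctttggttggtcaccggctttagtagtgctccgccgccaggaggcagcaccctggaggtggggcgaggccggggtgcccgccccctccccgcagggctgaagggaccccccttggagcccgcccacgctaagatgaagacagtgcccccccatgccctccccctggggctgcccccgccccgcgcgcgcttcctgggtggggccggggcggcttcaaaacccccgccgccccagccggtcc
Smad6 promoter (chr9:64022060-64022309, minus strand): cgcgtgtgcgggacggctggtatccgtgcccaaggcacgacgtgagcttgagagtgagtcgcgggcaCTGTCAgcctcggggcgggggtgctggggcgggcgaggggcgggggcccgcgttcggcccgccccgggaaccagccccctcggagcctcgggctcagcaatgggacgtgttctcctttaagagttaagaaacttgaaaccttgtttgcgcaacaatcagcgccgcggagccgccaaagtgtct
Id3 promoter (chr4:136143572-136143821, plus strand): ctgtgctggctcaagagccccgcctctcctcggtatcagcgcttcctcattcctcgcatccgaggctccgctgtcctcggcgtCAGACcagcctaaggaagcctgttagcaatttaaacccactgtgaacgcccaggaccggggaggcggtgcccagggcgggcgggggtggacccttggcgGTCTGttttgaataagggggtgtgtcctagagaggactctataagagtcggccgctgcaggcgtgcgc
Counted from the start, GGCGCC lies at -105 to -100 in the Bmpr2 promoter, CTGTCA at -183 to -178 in that of Smad6, and CAGAC at -167 to -163 and GTCTG at -68 to -64 in that of Id3. None of the motifs was found in the Tgfb1 window. A match describes letters and does not show binding, and these counts say nothing of MEIS2 or SMAD proteins on other DNA.

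Of the 47 genes, 38 had enough counts to be tested. The genes Bmp2, Bmp5, Bmp7, Inhbb, Bmpr1b and Acvrl1 had 0 counts in every library. The remaining 3 untested genes were Nog, with counts of 0, 1, 1 and 0 in controls 1 and 2, then MEIS2 1 and 2, Id4, with 0, 1, 0 and 0, and Tgfbi, with 3, 0, 0 and 3. All of these lay at or under the floor of 3 counts per library. Of the tested genes, 35 reached the filter's level of 0.622 CPM in both controls. Acvr2b, Fst and Bambi did not, so these 3 passed in part through other libraries. For edgeR's fit of all 4 libraries, the next paragraph also gives the higher and non-overlapping genes without them. Other tallies keep them.

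Most tested pathway genes had a higher fitted level in the MEIS2 line, but none passed the test. Of 38 tested genes, 33 (86.8%) had a fitted log2 fold change above 0, against 50.9% of all genes tested, and the median was 0.62 against 0.01. Over the 35 genes at the filter's level in both controls, 30 (85.7%) were above 0 and the median was 0.60. By edgeR's quasi-likelihood test none passed an adjusted p of 0.05, a threshold that called 0.00781% of all genes tested, Meis2 alone, and the lowest adjusted p of a pathway gene was 0.277. At an unadjusted p under 0.05, 6 (15.8%), all among those 35 genes, were higher against 9.79% of all genes tested, and 0 were lower against 0.414%. Over all genes tested that is 1253 higher and 53 lower, a split that became 971 and 696 once the trend of each library on gene length and GC content was removed. DESeq2 and limma-voom gave 0 past the threshold too, and 5 and 6 higher at that unadjusted p, where they had 8.87% and 7.96% of all genes. Without MEIS2 library 1, when the spread comes from the controls alone, 13 passed against 18% of all genes, and 17 were higher at the unadjusted p against 21.2%. Without control 1, control 2 or MEIS2 library 2 the latter count was 1, 1 and 2, against 1.66%, 5.19% and 3.32% of all genes. In 19 genes both MEIS2 libraries lay above both controls, a share of 50% against 22.6%, and all 19 were among the 35 genes (54.3%). In 0 genes both lay below, against 19.1%, and in 19 the lines overlapped. The 5 genes with a lower fitted level were Tgfb1, Bmp1, Gdf15, Eng and Id3, and in each the lines overlapped. Of these, Bmp1 turned above 0 with scaling by library size alone, and Gdf15 and Id3 with the trend removed.

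**Figure D1:**
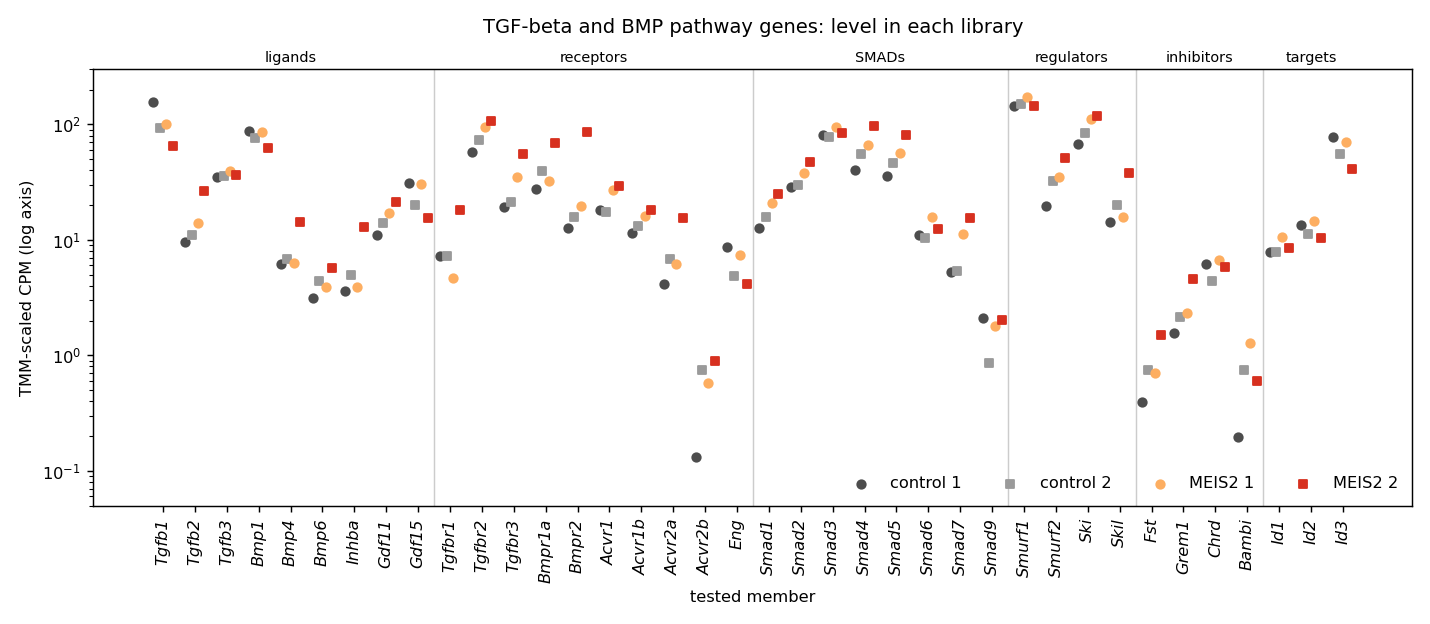
TMM-scaled CPM of the 38 tested TGF-beta and BMP pathway genes (log axis) in control 1 and 2 and MEIS2 1 and 2, each point 1 library, in order of role. In SMADs the MEIS2 points lie above the control points in 7 of 8 genes, while many ligands and receptors overlap or rest on MEIS2 library 2.

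Among ligands, Tgfb1 and Tgfb2 differed in direction. Tgfb1 (ENSMUSG00000002603), the most studied TGF-beta isoform, measured 157.4 and 92.2 CPM in controls 1 and 2 and 99.8 and 65.2 CPM in MEIS2 libraries 1 and 2. Control 1 was the highest, MEIS2 library 2 the lowest, and the other 2 libraries lay close together, so the lines overlapped. The log2 fold change was -0.60 (SE 0.35, adjusted p = 0.580). Tgfb2, another isoform with a large part in development, measured 9.51 and 11.1 CPM in the controls and 14.1 and 26.5 CPM in the MEIS2 libraries. Both MEIS2 libraries lay above both controls, at a log2 fold change of 0.98 (SE 0.41, unadjusted p = 0.0323, adjusted p = 0.415), which was 0.41 without MEIS2 library 2. Tgfb3 measured 35.3 and 35.7 CPM against 39.2 and 36.8 CPM, a log2 fold change of 0.10 (SE 0.33). The Tgfb3 locus overlaps Ttll5 on the opposite strand, and whether reads were counted by strand was not given in the sources used here. Per length, Tgfb1 made up 72.1% and 59.5% of the CPM per kilobase of the 3 isoforms in the controls against 58.5% and 45.6% in the MEIS2 libraries, where Tgfb2 made up 3.80% and 6.22% against 7.20% and 16.1%. For Tgfb1, control 2 and MEIS2 library 1 nearly coincided and the outer libraries lay far apart, while the Tgfb2 share stood out in MEIS2 library 2.

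Bmp1, which encodes a procollagen protease and not a ligand of the family, measured 87.6 and 76.7 CPM against 86.4 and 62.9 CPM. Its libraries overlapped, at a log2 fold change of -0.14 (SE 0.31). Bmp4, a BMP ligand of dorsal neural tissue, stood at 6.19 and 6.83 CPM in the controls and 6.28 and 14.2 CPM in the MEIS2 libraries, and Inhba, which encodes the activin A subunit, at 3.58 and 4.92 against 3.91 and 12.8 CPM. In both genes MEIS2 library 2 alone stood high, and without it the log2 fold changes of 0.66 and 0.97 became -0.09 and -0.16. Gdf11, an activin-like ligand, measured 11.1 and 14.1 CPM against 17.1 and 21.3 CPM, with no overlap, at a log2 fold change of 0.61 (SE 0.38). Gdf15, a stress-induced ligand that signals through GFRAL, measured 31.3 and 19.9 CPM against 30.3 and 15.5 CPM, and its first libraries were high in both lines. Bmp6, at 3.13 to 5.72 CPM, lies over Txndc5 on the opposite strand, which had far more counts, so its reads are uncertain. Over the 8 tested ligand genes other than Bmp1, the fitted level was higher in 6 (75%, against 50.9% of all genes tested), the MEIS2 libraries lay above in 3 (37.5% against 22.6%), and the median log2 fold change was 0.48. With Bmp1 included, the median of the 9 was 0.36, and 0.03 without MEIS2 library 2.

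The receptors held the largest single difference, and of the 10 tested, 9 had a higher fitted level (90% against 50.9% of all genes tested), 5 had both MEIS2 libraries above both controls (50% against 22.6%), and the median was 0.66, or 0.35 without MEIS2 library 2. Bmpr2, the main type II receptor for BMPs (chromosome 1, 59802559 to 59918173, plus strand, in the positions of the table, with a build not given in the sources used here and not to be set beside the promoter positions above), measured 12.6 and 15.8 CPM in the controls and 19.6 and 86.3 CPM in the MEIS2 libraries. MEIS2 library 2 stood more than 4 times above the other MEIS2 library, and the lines did not overlap. The log2 fold change was 1.90 (SE 0.53, unadjusted p = 0.00293, adjusted p = 0.277), and it was 0.43 without MEIS2 library 2 and 0.73 once the length and GC trend was removed. Tgfbr3, the coreceptor betaglycan that presents TGF-beta2, measured 19.2 and 21.2 CPM against 34.8 and 55.7 CPM (log2 fold change 1.16, SE 0.37, adjusted p = 0.279). Here both MEIS2 libraries stood well above the controls, and the value without MEIS2 library 2 was 0.75. Bmpr2 and Tgfbr3 were 2 of the 6 genes with an unadjusted p under 0.05.

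Tgfbr2, the type II receptor of TGF-beta, measured 57.1 and 73.0 CPM against 93.9 and 106.6 CPM, at a difference of 0.62 on the log2 scale (SE 0.31, adjusted p = 0.516). For Tgfbr2 this value was 0.21 with the length and GC trend removed. Its type I partner Tgfbr1 measured 7.23 and 7.26 CPM against 4.68 and 18 CPM. The MEIS2 libraries of Tgfbr1 lay on either side of the controls, and its log2 fold change of 0.65 (SE 0.53) was -0.67 without MEIS2 library 2. Bmpr1a, a BMP type I receptor, measured 27.4 and 39.5 CPM against 32.1 and 69.4 CPM, with MEIS2 library 1 between the controls. Acvr1, the type I receptor also called ALK2, measured 18.2 and 17.3 CPM against 27.1 and 29.3 CPM, with the libraries of each line close together and a difference of 0.67 on the log2 scale (SE 0.35, adjusted p = 0.558). Acvr1b, the activin type I receptor, did not overlap either, at 0.47. The activin type II receptors Acvr2a and Acvr2b stood at 1.00 and 0.74 with overlap, of which Acvr2a was 0.14 without MEIS2 library 2, and Eng, an endothelial coreceptor, at -0.22. Acvr2a and Eng overlap Orc4 and Fpgs, which had more counts on the opposite strand. Of the CPM per kilobase of type II receptors, Tgfbr2 made up 82.8% and 79.8% in the controls against 83.2% and 62.7% in the MEIS2 libraries, and Bmpr2 made up 8.29% and 7.84% against 7.91% and 23.1%, a difference seen in MEIS2 library 2 alone.

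The 8 SMAD genes all had a higher fitted level in the MEIS2 line, and in 7 of them both MEIS2 libraries lay above both controls, with Smad9 the exception, a share of 87.5% against 22.6% of all genes tested. Smad7, which blocks the type I receptors, measured 5.28 and 5.42 CPM in the controls and 11.2 and 15.5 CPM in the MEIS2 libraries. The controls lay close together and each MEIS2 library stood at more than 2 times their level. The log2 fold change was 1.32 (SE 0.41, unadjusted p = 0.00610, adjusted p = 0.279), and it ran from 1.03 to 1.52 over the 13 alternative settings. Smad6, the inhibitor that acts mainly on BMP signalling, measured 11.1 and 10.5 CPM against 15.8 and 12.4 CPM, a log2 fold change of 0.39 (SE 0.39). Per kilobase, Smad7 made up 25.2% and 26.8% of the 2 inhibitory SMADs in the controls against 33.4% and 47% in the MEIS2 libraries.

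Smad4, the SMAD shared by both branches, measured 40.4 and 55.5 CPM against 66.3 and 96.3 CPM, at a log2 fold change of 0.76 (SE 0.33, unadjusted p = 0.0385, adjusted p = 0.447). Smad5, of the BMP branch, measured 35.8 and 46.2 CPM against 55.9 and 80.8 CPM, at 0.74 (SE 0.34, adjusted p = 0.475). Without MEIS2 library 2 these values were 0.43 and 0.41. In both genes the 4 libraries were spaced in the same order, with control 1 lowest and MEIS2 library 2 highest. Smad1 stood at 0.68 and Smad2, at 28.5 and 29.9 against 37.8 and 47.4 CPM, at 0.55 (SE 0.34). With the length and GC trend removed, Smad4 stood at 0.69, Smad5 at 0.33, Smad1 at 0.47 and Smad2 at 0.06. Smad3, which carries TGF-beta and activin signals, measured 80.7 and 78.1 CPM against 94.3 and 84.8 CPM, at 0.17 (SE 0.30). It made up 58.1% and 53.4% of the CPM per kilobase of the receptor-regulated SMADs in the controls against 52.3% and 42.6% in the MEIS2 libraries. Smad9 had 14 to 34 counts per library and overlapped, and stood at -0.14 without control 2. The median of the 8 SMAD genes was 0.61, and 0.40 with the trend removed.

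**Figure D2:**
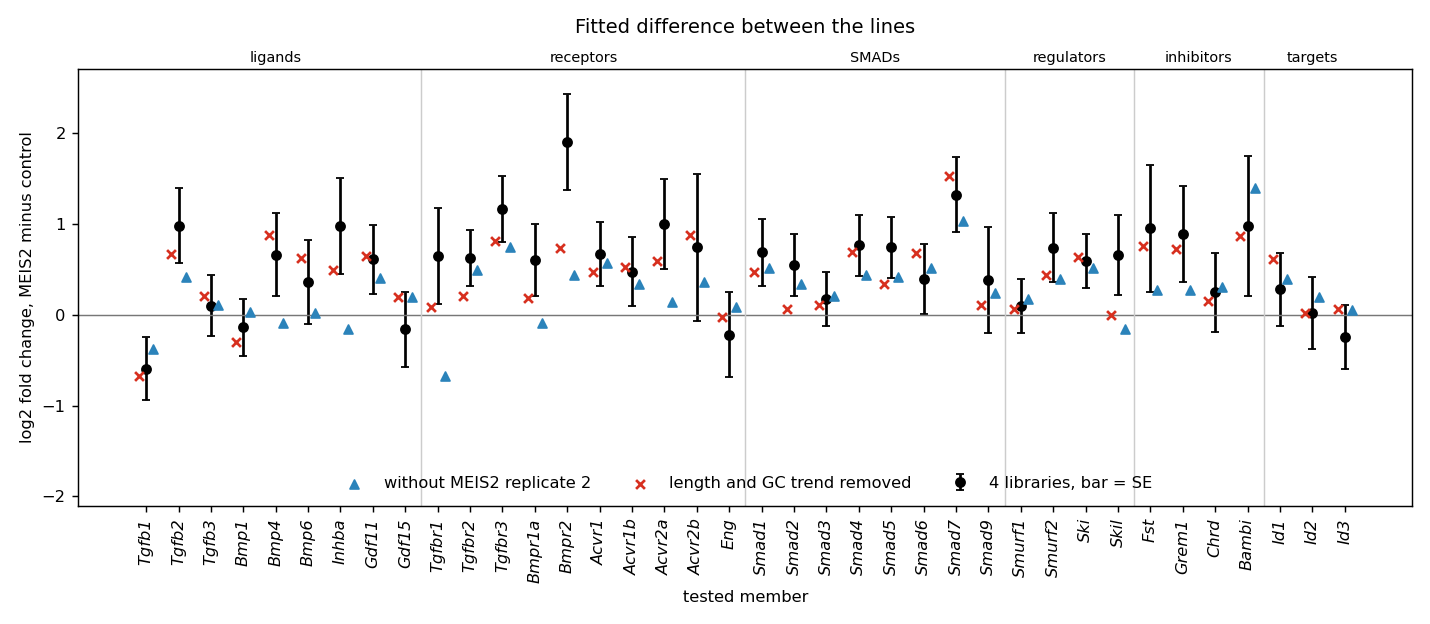
Fitted log2 fold change (MEIS2 minus control) of the 38 tested pathway genes with its SE, in order of role, from edgeR's fit on 2 libraries per line. Values run from -0.60 (Tgfb1) to 1.90 (Bmpr2), and none passed an adjusted p of 0.05.

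Of the 4 intracellular regulators, Smurf1 and Ski were among the 12 most abundant genes by mean CPM. Smurf1, a ubiquitin ligase, had the highest mean CPM of the 47 genes, at 145.4 and 149.0 CPM in the controls and 171.1 and 143.0 CPM in the MEIS2 libraries, which overlapped, with a log2 fold change of 0.09 (SE 0.30). Smurf2 measured 19.6 and 32.2 CPM against 34.8 and 51.6 CPM, at 0.74 (SE 0.38). Ski, a repressor of SMAD-driven transcription, measured 68.2 and 83.6 CPM against 111.4 and 117.1 CPM, with no overlap, at 0.59 (SE 0.30, adjusted p = 0.537). Skil, which encodes the related repressor SnoN, overlapped at 0.66 and stood at -0.16 without MEIS2 library 2.

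The 5 secreted and membrane inhibitors among the 47 genes had low levels. Grem1, a BMP antagonist, measured 1.56 and 2.15 CPM in the controls and 2.31 and 4.59 CPM in the MEIS2 libraries, and was the sole one of 4 tested inhibitors without overlap, at a log2 fold change of 0.89 (SE 0.53), or 0.27 without MEIS2 library 2. Chrd, which encodes the antagonist chordin, measured 6.19 and 4.37 CPM against 6.73 and 5.78 CPM and overlaps Thpo on the opposite strand. Fst (follistatin) had 6 to 25 counts per library and Bambi, a decoy receptor, 3 to 20.

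The ID genes, direct BMP targets that encode dominant negative helix-loop-helix proteins, had fitted differences on both sides of 0, though all 3 tested lay above 0 with the length and GC trend removed. Id3 measured 77.0 and 55.3 CPM in the controls and 70.5 and 41.0 CPM in the MEIS2 libraries, and replicate 1 of each line lay above replicate 2, at a difference of -0.25 on the log2 scale (SE 0.35, adjusted p = 0.776). Id1 measured 7.82 and 7.88 CPM against 10.6 and 8.47 CPM, at 0.28 (SE 0.40), the only one of the 3 tested target genes without overlap. Id2, at 13.5 and 11.3 against 14.7 and 10.4 CPM, stood at 0.02 (SE 0.39), and this sign changed with the scaling. The difference between the ID genes and the other roles was not tested.

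Per kilobase, Id3 had the highest control level of the 47 genes, at 36.9 ± 8.54 CPM per kilobase (SD, n = 2), followed by Tgfb1 at 24.8 ± 9.15 and Smurf1 at 23.2 ± 0.398. The mean ± SD ranges of Id3 and Tgfb1 overlapped, as did those of Tgfb1 and Smurf1. Smad3 at 14.3 ± 0.335, Gdf15 at 13.8 ± 4.35, Ski at 13.7 ± 1.96 and Smad4 at 12.9 ± 2.88 followed, again within each other's spread. Fst at 0.123, Acvr2b at 0.111 and Bambi at 0.0920 CPM per kilobase were the lowest of the tested genes.

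**Figure D3:**
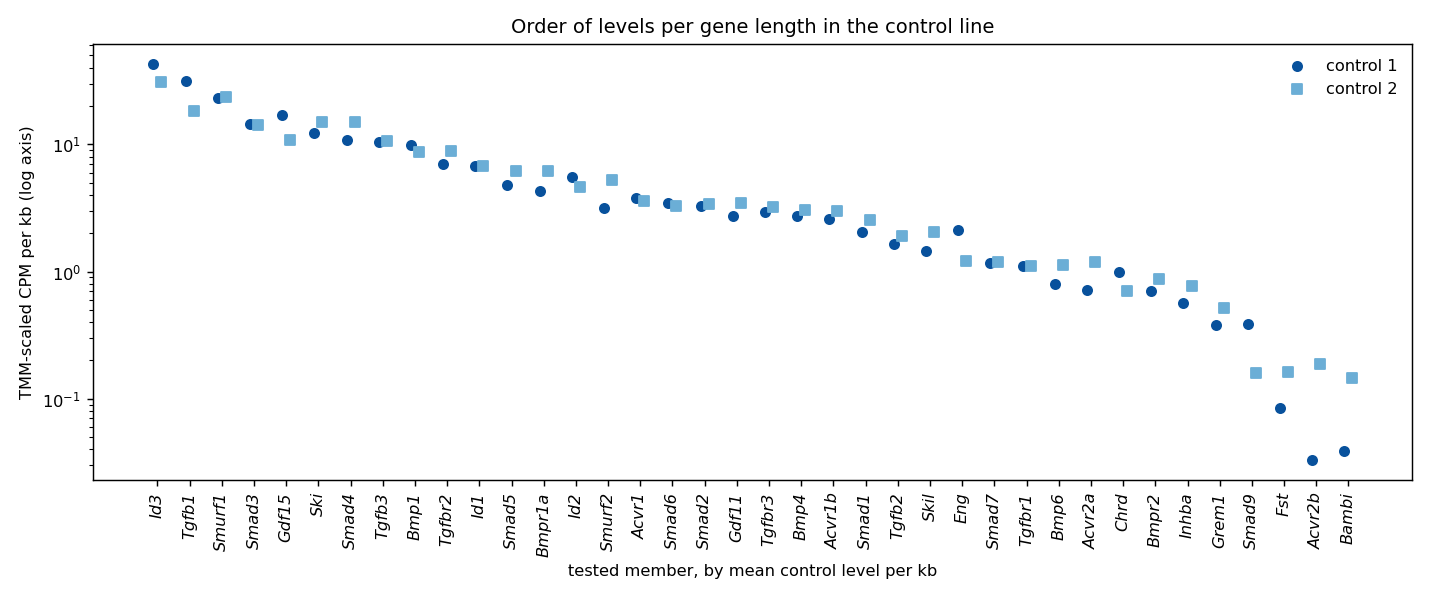
Control levels in TMM-scaled CPM per kilobase of gene length (log axis) of the tested pathway genes in order of their mean, each point 1 control library. Id3 stands highest at a mean of 36.9 and Bambi lowest at 0.0920.

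The pathway genes also differed between libraries of 1 line. The median deviation of the 38 genes from their own mean, in log2 CPM, was -0.43 in control 1, -0.14 in control 2, 0.15 in MEIS2 library 1 and 0.44 in MEIS2 library 2, while the median of all genes tested lay between -0.07 and 0.04. Control 2 was above control 1 in 71.1% of the 38 genes against 57.9% of all genes tested, and MEIS2 library 2 above library 1 in 65.8% against 50.7%. Between the nearest libraries of the 2 lines, MEIS2 library 1 was above control 2 in 76.3% against 49.8%, and in 8 of 8 SMAD genes. MEIS2 library 2 was the highest library in 24 genes (63.2% against 40.6%), and control 1 the lowest in 25 (65.8% against 38.0%). Without MEIS2 library 2 the median log2 fold change of the 38 genes was 0.29, and without control 1 it was 0.44.

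**Figure D4:**
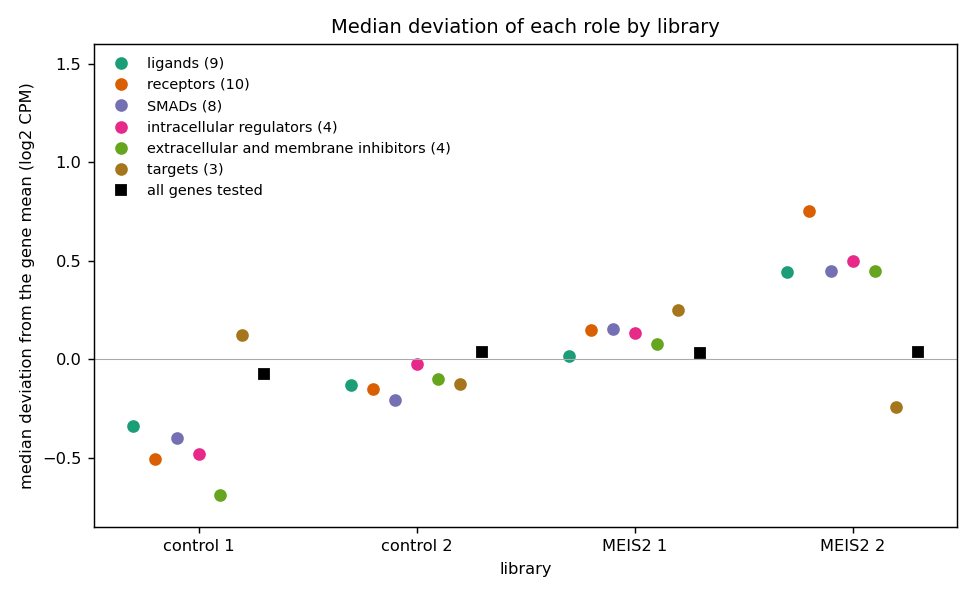
Median deviation of each role from the gene means (log2 CPM, prior count 2) in each of the 4 libraries, with the median of all genes tested as black squares. For receptors, SMADs, regulators, inhibitors and ligands control 1 is lowest and MEIS2 2 highest, while the targets are lowest in MEIS2 2.

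Gene length and the share of mitochondrial mRNA moved with this order of libraries. Across the genes tested, a library's deviation from the gene mean had a Spearman correlation with length of -0.46 and -0.277 in the controls, then -0.087 and 0.485 in MEIS2 libraries 1 and 2. With GC content the correlations were 0.507 and -0.1, then 0.494 and -0.582, an order that differs. Across the genes tested, the log2 fold change had a Spearman correlation of 0.488 with gene length and -0.421 with GC content, where genes share the 4 libraries and are not independent. The 16 pathway genes of at least 5662 bases had a median of 0.67 against 0.43 for all genes of that length, and the 17 of 3030 to 5661 bases had 0.59 against -0.02, and the 5 shorter ones had 0.02 against -0.27. At an unadjusted p under 0.05, 4 of those 16 were higher (against 22.8% of all long genes) and 2 of those 17 (against 4.5%), with 0 of the 5 shorter ones (against 2.09%). With the length and GC trend of each library removed, 34 of 38 genes had a higher fitted level and the median was 0.47 against -0.06. Mitochondrial mRNAs took 0.655% and 0.909% of counts in the controls against 0.918% and 1.27% in the MEIS2 libraries, and their part in the result was not tested.

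Other genes of the pathway were taken from a list of 74, of which 41 were tested and 22 had 0 counts in all libraries. None passed an adjusted p of 0.05, 30 had a higher fitted level (73.2% against 50.9% of all genes tested), 13 were higher at an unadjusted p under 0.05 (31.7% against 9.79%) and 0 were lower (against 0.414%). The lowest p-values belonged to the SMAD coactivators Crebbp (log2 fold change 2.02, SE 0.42) and Ep300 (1.59, SE 0.36) and to Itgav (1.51, SE 0.39), an integrin subunit that frees latent TGF-beta, each at an adjusted p of 0.256. Without MEIS2 library 2 the values were 1.35, 0.98 and 0.81, and once the trend was removed 1.38, 0.89 and 0.83. Crebbp measured 8.80 and 8.12 CPM in the controls and 22.2 and 46.6 CPM in the MEIS2 libraries, with no overlap. Lower fitted levels were led by Pcolce (-0.57, SE 0.34), a procollagen protease enhancer, and Nbl1 (-0.49, SE 0.37), a BMP antagonist. Amh (-1.06, SE 0.76), a ligand of the family, was also among them, with only 3 to 16 counts per library. For Pcolce, Nbl1 and Amh the values without MEIS2 library 2 were -0.39, -0.29 and -0.42. Once the trend was removed they were -0.42, -0.12 and -0.81. The median of the 41 genes was 0.53, and 0.16 with the trend removed.

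Known target genes of the pathway had fitted differences on both sides of 0. Of 34 TGF-beta target genes 28 were tested, 19 had a higher fitted level (67.9% against 50.9% of all genes tested), 6 were higher at an unadjusted p under 0.05 (21.4% against 9.79%), 0 were lower, and none passed the adjusted threshold. Both MEIS2 libraries lay above both controls in 16 (57.1% against 22.6%) and below in 4, against 19.1%. The matrix genes Vcan (1.54, SE 0.46), Lox (1.19, SE 0.36) and Thbs1 (1.10, SE 0.35) led the higher ones. Without MEIS2 library 2 the values were 0.50, 0.52 and 0.71, and once the trend was removed 0.64, 0.92 and 0.82. The lower ones were led by Timp1 (-0.60, SE 0.32), a metalloproteinase inhibitor, Acta2 (-0.69, SE 0.37), smooth muscle actin, and Tgm2 (-0.54, SE 0.31), a transglutaminase, and these are 3 of the 4 with both MEIS2 libraries below. Of 16 BMP target genes 8 were tested, with 5 higher (62.5%) and 3 lower, 2 higher at an unadjusted p under 0.05 (25%), led by Gata3 (1.36, SE 0.49) and Runx2 (1.19, SE 0.40), developmental transcription factors, and by Atoh8 (-0.53, SE 0.40) on the lower side. Medians were 0.28 for the TGF-beta targets and 0.21 for the BMP targets, against 0.01 for all genes tested.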

How the data were processed

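The authors deposited 1 table of whole-number read counts per gene, and its columns and rows, per the file headers, give 1 library each and an Ensembl gene ID, a symbol, a position, a strand and a gene length. Per the labels' protocols, mRNA was selected on oligo(dT) beads, so coverage of long transcripts depends on RNA integrity. Per the submitters' processing notes, DESeq2 was used, with no version named. Aligner, counter, strand setting and build were not given in the sources used here.

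Counts were tested in R 4.3.3 with edgeR 4.0.16: filterByExpr with the group, TMM scaling and the quasi-likelihood test of the group term, with Benjamini-Hochberg adjustment over the 12802 genes tested and a threshold of 0.05. The SE is the absolute log2 fold change over the root of F. The procedure was tested on simulated data. The chi-square per degree of freedom between libraries of 1 line was 33.9 and 88.4, so libraries varied beyond counting error. Each library was counted as 1 replicate, though the labels name no separate cultures. GC content came from the longest GENCODE transcript of each gene, for 98.9% of the genes tested. Alternatives were other scalings and filters, DESeq2 1.42.0, limma-voom (limma 3.58.1), removal of each library's trend on length and GC content, a replicate block, and leaving out 1 library at a time.

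The genes and lists were chosen with earlier results of these data known. Library values are given for pathway genes with an unadjusted p under 0.05, the 12 most abundant and at least 1 per role. From the other lists, fitted differences are given for up to 3 genes of the lowest p in each direction. Other genes with library values were chosen after their values were seen.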

Additional observations from a re-analysis of the deposited data

How the results depend on the processing

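In 25 of 38 tested genes the direction was the same under each alternative that tested them, 24 higher and Tgfb1 lower: 21 under all 13 alternatives, and Bmp6, Fst, Grem1 and Bambi under 12, since the filter at 5 CPM drops them. The alternatives share the same libraries, and the share of all genes tested that kept their direction was not computed. The count is therefore not a trait of the pathway genes. Genes past the threshold numbered 271 with no filter on low counts, 59 with DESeq2 and 0 once the length and GC trend was removed, against 1. Pathway genes past it numbered 1 with no filter (Bmpr2), where 1.26% of all genes passed, against 0. With the trend removed, 10 pathway genes were higher at an unadjusted p under 0.05, against 6, with 7.58% of all genes. The labels number the libraries of both lines 1 and 2 without saying that a number marks a shared culture or day, and the deviations of same-numbered libraries correlated at 0.529 across genes. With the replicate block, 2795 genes (21.8% of all genes tested) and 13 pathway genes passed the threshold. Of these 13, only Tgfb1 was lower. At an unadjusted p under 0.05, 17 pathway genes were higher, against 20.2% of all genes. With the block and the trend removed the numbers were 2468 (19.3%), 9 (again with only Tgfb1 lower) and 16, the last against 13.3%. Leaving out each library gave 1 to 2411 genes past the threshold, 0 to 13 pathway genes, 1 to 17 at the unadjusted p, and a median log2 fold change of 0.29 to 0.73. In these fits a lone library is assumed to vary like the other line, and the highest counts came without MEIS2 replicate 1. Library size alone moved the median of all genes to 0.17 and that of the pathway genes to 0.78. Values whose sign reversed against edgeR's fit of all 4 libraries follow, and no pathway gene passed the threshold in that fit. Id2 stood at -0.0409 with DESeq2 size factors and with DESeq2, -0.0256 with no filter, -5.15e-05 with limma-voom and -0.00298 with the block and the trend removed. Bmp1 stood at 0.00825 with library size alone. With the trend removed, Gdf15 stood at 0.19, Skil at -0.00922 and Id3 at 0.0577, and with the block too at 0.19, -0.0117 and 0.0561. Leaving out each library gave ranges of -0.40 to 0.0294 for Bmp1, -0.0918 to 1.12 for Bmp4, -0.16 to 1.58 for Inhba, -0.75 to 0.19 for Gdf15, -0.67 to 1.30 for Tgfbr1, -0.0952 to 1.04 for Bmpr1a, -0.0135 to 2.42 for Acvr2b, -0.71 to 0.24 for Eng, -0.14 to 1.13 for Smad9, -0.0563 to 0.18 for Smurf1, -0.16 to 1.15 for Skil, -0.27 to 0.20 for Id2 and -0.71 to 0.0458 for Id3. The cause of these changes was not tested. With a biological coefficient of variation of 27.9% and 2 libraries per line, small differences of single genes were not detectable, and large ones could be missed. Bmpr2, at a log2 fold change of 1.90, did not pass (adjusted p = 0.277 by edgeR's quasi-likelihood test). Genes with few counts, such as Acvr2b, Bambi and Fst, were the least precise.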
